A study of Mus musculus with 6 samples.

Results

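The transforming growth factor β (TGF-β) pathway of microglia, the resident macrophages of the brain, was followed through 10 genes that carry the signal from ligand to nucleus: the ligand *Tgfb1*, the anchor of its latent form *Nrros*, the receptors *Tgfbr1* and *Tgfbr2*, the signal carriers *Smad2*, *Smad3* and *Smad4*, and the inhibitors *Smad7*, *Ski* and *Skil*. The members were all non-control array probes whose transcript accession belongs to one of these genes, which gave 21 of 56601 tested probes and 10 of 23462 genes with a tested probe. Expression was measured on 6 single-colour Agilent arrays, 1 per sample. Mice 3 months old provided 3 samples labelled Bhlhe41 dTomato-Cre/+ (B41HET) and 3 labelled Bhlhe41 dTomato-Cre/dTomato-Cre (B41KO), and the comparison asked what the loss of Bhlhe41 changes in microglial gene expression.

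Bhlhe41 is a basic helix-loop-helix transcriptional repressor. In the dTomato-Cre allele, a cassette that encodes dTomato and Cre and ends in a polyadenylation signal lies before the start codon of *Bhlhe41*, so that the allele makes the reporter and the recombinase instead of Bhlhe41. B41HET mice carry this allele on one chromosome and B41KO mice on both, so the control group also carries the reporter and the recombinase, has a single intact copy of *Bhlhe41*, and is not wild type. The allele acts in every cell that uses the *Bhlhe41* promoter, not in microglia alone. Per the study's methods, the mice were kept on a C57BL/6 background. The cells were enriched on Percoll and sorted as live CD45low CD11b+ Cx3cr1+ cells. Each sample was a pool of 10 to 15 mice per the study's methods, whereas the labels speak of 3 mice per genotype. The spread between samples is therefore a spread between pools, and the group names below are those of the labels.

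TGF-β1 is made as a latent complex, which NRROS (also called LRRC33) holds on the surface of microglia and from which integrins release the active ligand. The active ligand brings the receptors TGFBR2 and TGFBR1 together, TGFBR1 phosphorylates SMAD2 and SMAD3, and these enter the nucleus with SMAD4. SMAD7 blocks the receptor, SKI and SKIL (SnoN) hold the SMAD complex in a repressive state, and *Smad7* and *Skil* are themselves early targets of the pathway. In the brain, TGF-β1 is needed for microglia to mature and to keep their homeostatic genes.

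The promoters of the ligand and of its anchor are shown because both genes had non-overlapping genotypes and act at the same step. Factors of the Bhlhe41 family bind E-boxes, of the general form CANNTG and most often CACGTG. The windows run from 250 bases before to 50 bases after the annotated start, 5′ to 3′, from RefSeq on GRCm38.p6, at chr7:25686752-25687051 on the plus strand for *Tgfb1* and at chr16:32165545-32165844 on the minus strand for *Nrros*. Capitals mark CANNTG.
Tgfb1 promoter: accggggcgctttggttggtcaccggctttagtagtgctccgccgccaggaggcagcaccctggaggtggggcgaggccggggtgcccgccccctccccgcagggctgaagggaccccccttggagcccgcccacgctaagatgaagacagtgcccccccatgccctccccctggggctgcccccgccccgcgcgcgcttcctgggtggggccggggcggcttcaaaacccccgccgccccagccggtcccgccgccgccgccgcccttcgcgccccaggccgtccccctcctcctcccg
Nrros promoter: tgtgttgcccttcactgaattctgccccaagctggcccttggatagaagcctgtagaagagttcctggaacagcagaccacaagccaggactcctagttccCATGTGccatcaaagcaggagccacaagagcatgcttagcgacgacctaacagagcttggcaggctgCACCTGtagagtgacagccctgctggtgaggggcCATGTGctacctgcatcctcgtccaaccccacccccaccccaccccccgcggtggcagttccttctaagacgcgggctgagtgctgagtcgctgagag
The *Tgfb1* window (77.0% G and C) held no CANNTG and the *Nrros* window (59.0% G and C) held 3. Both motifs read the same on the opposite strand, and CACGTG is itself a CANNTG. Of the 7 windows at hand for 6 of the genes, 0 held CACGTG and 3 held CANNTG, while 7.15% and 72.3% of all 32851 windows of this length did. The 6 genes were *Nrros*, *Ski*, *Smad3*, *Tgfb1*, *Tgfbr1* and *Tgfbr2*. The counts therefore do not cover *Smad2*, *Smad4*, *Smad7* or *Skil*. These are matches of letters in a short window, and binding was not measured here.

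The arrays were alike in quality. Between 39654 and 42719 probes per array (70.1% to 75.5%) were well above background, and correlations across all probes lay between 0.989 and 0.993 within a genotype and between 0.985 and 0.989 across genotypes. All 10 microglial markers fixed for the cell type check were well above background on all 6 arrays, with a summed signal of 157600 to 171800 in B41HET and 157700 to 164900 in B41KO. In direction, 5 of the 10 were higher and 5 lower in B41KO. By the rule for calls given below, 1 of them, *Fcrls*, was called lower (log2 fold change -0.76, adjusted p = 0.00581), beside 4.01% of all genes. The brightest *Bhlhe41* probe, A_55_P2503365, was not lower in B41KO (log2 fold change 0.38, SE 0.20, adjusted p = 0.330), and neither was the other (0.33, adjusted p = 0.203). The allele leaves part of the transcript in place and the position of the probes is not given, so the transcript did not check the labels. All arrays shared 1 slide, on which row 1 held the 3 B41HET samples and B41KO 1, and row 2 held B41KO 2 and B41KO 3.

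Across the pathway, 17 of the 21 probes were lower in B41KO than in B41HET and 4 were higher. A probe was called where its Benjamini-Hochberg adjusted p in limma, over all tested probes, was 0.05 or less and its log2 fold change (B41KO over B41HET) was 0.5 or more in size. By this rule 2 member probes were lower, 1 of *Smad7* and 1 of *Skil*, against 3.34% of all probes called lower. None was called higher, against 1.72% of all probes, and 0 of the 4 higher probes had an unadjusted p under 0.05, while 9 of the 17 lower ones did. Over all probes, 6205 of the 29821 higher and 6826 of the 26780 lower ones had such a p. The genotypes did not overlap, meaning that every sample of one lay above every sample of the other, at 11 of the 21 probes (52.4%), against 29.7% of all probes. The median log2 fold change of the member probes was -0.22, and that of all probes was 0.02. The median size of change, without sign, was 0.216 for the member probes and 0.189 for all probes.

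With each gene read from its brightest probe, the one whose signal averaged highest across the arrays, 8 of the 10 genes were lower and the median was -0.25, beside 0.01 over all genes. Only *Smad7* was called lower (1 of 10), against 4.01% of all genes called lower and 1.44% called higher. The genotypes did not overlap for 6 genes, *Tgfb1*, *Nrros*, *Smad3*, *Smad4*, *Smad7* and *Skil*, against 32.2% of all genes. All 21 probes were well above background on all 6 arrays, so no member was lost to a low signal. Since sorted cells were measured in bulk, a lower signal from fewer cells of a type and one from less RNA per cell cannot be told apart.

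**Figure D1:**
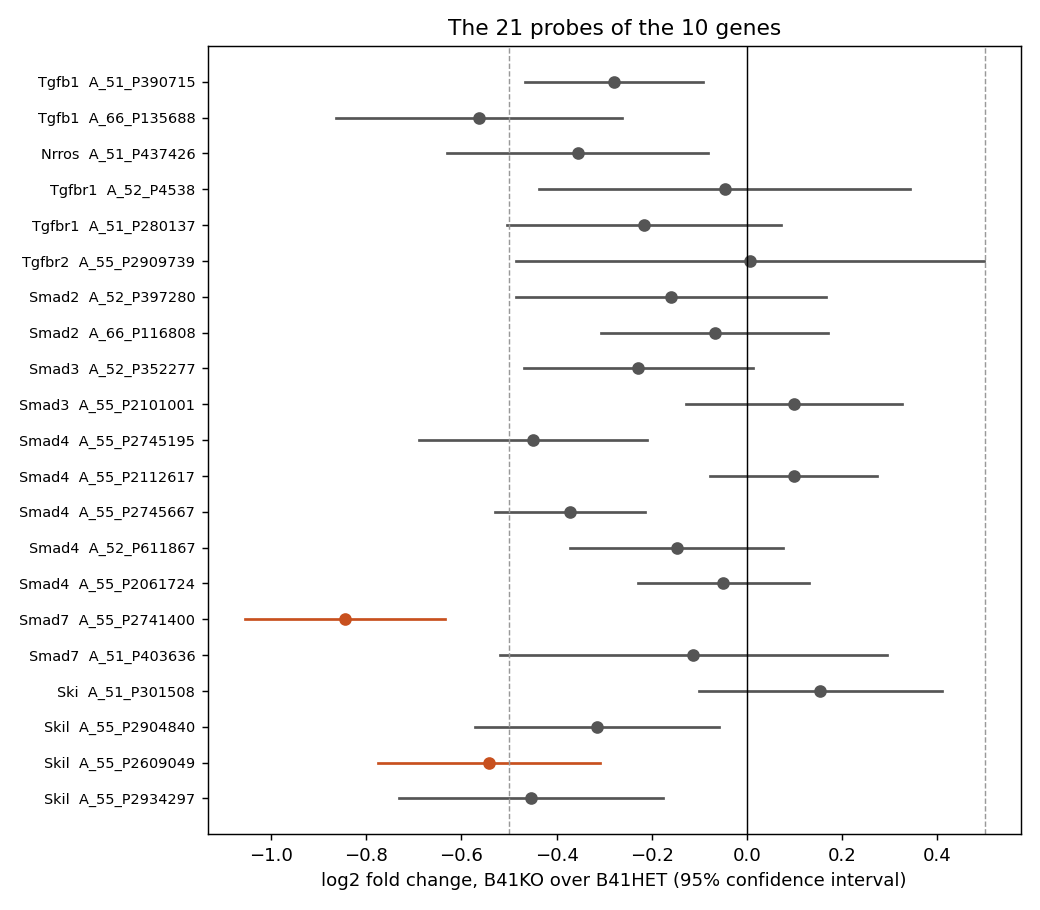
Log2 fold change of each of the 21 probes, B41KO over B41HET, with its 95% confidence interval from limma over 3 samples per genotype. Orange marks the 2 probes called lower, the dashed lines mark log2 fold changes of 0.5 in either direction, and 17 of the 21 points lie left of 0.

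The ligand and its anchor lay lower in every B41KO sample than in any B41HET sample, without passing the test. *Tgfb1*, the only TGF-β ligand among the members, was read by 2 probes on the same transcript. Its brighter probe, A_51_P390715, had log2 signals of 13.06, 12.98 and 13.01 in B41HET 1 to 3 and of 12.81, 12.75 and 12.65 in B41KO 1 to 3. The genotypes did not overlap, and the lowest B41HET sample was 0.17 above the highest B41KO sample. The log2 fold change was -0.28 (SE 0.075, 95% confidence interval -0.47 to -0.09, adjusted p = 0.0938). The dimmer probe, A_66_P135688, had log2 signals of 11.02, 10.83 and 10.80 in B41HET and of 10.34, 10.49 and 10.13 in B41KO, again with no overlap. Its log2 fold change of -0.56 (SE 0.12, interval -0.86 to -0.26) was past the fold threshold, and its adjusted p of 0.0550 was not past the other. This probe was called lower with normexp background correction (adjusted p = 0.0138), with dim probes left out (0.0276) and with a trended, robust variance (0.024). The mean over both probes was -0.42 (SE 0.092, adjusted p = 0.0638).

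*Nrros*, the anchor of latent TGF-β1, had 1 probe, A_51_P437426, with log2 signals of 11.30, 11.26 and 11.22 in B41HET and of 11.08, 10.71 and 10.93 in B41KO. All B41KO samples lay below all B41HET samples, with B41KO 2 the lowest. The log2 fold change was -0.36 (SE 0.11, interval -0.63 to -0.08, adjusted p = 0.128). Within slide row 1, where B41KO 1 stood beside the 3 B41HET samples, the difference was -0.18 for *Nrros*, and for *Tgfb1* it was -0.21 on the brighter and -0.54 on the dimmer probe.

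**Figure D2:**
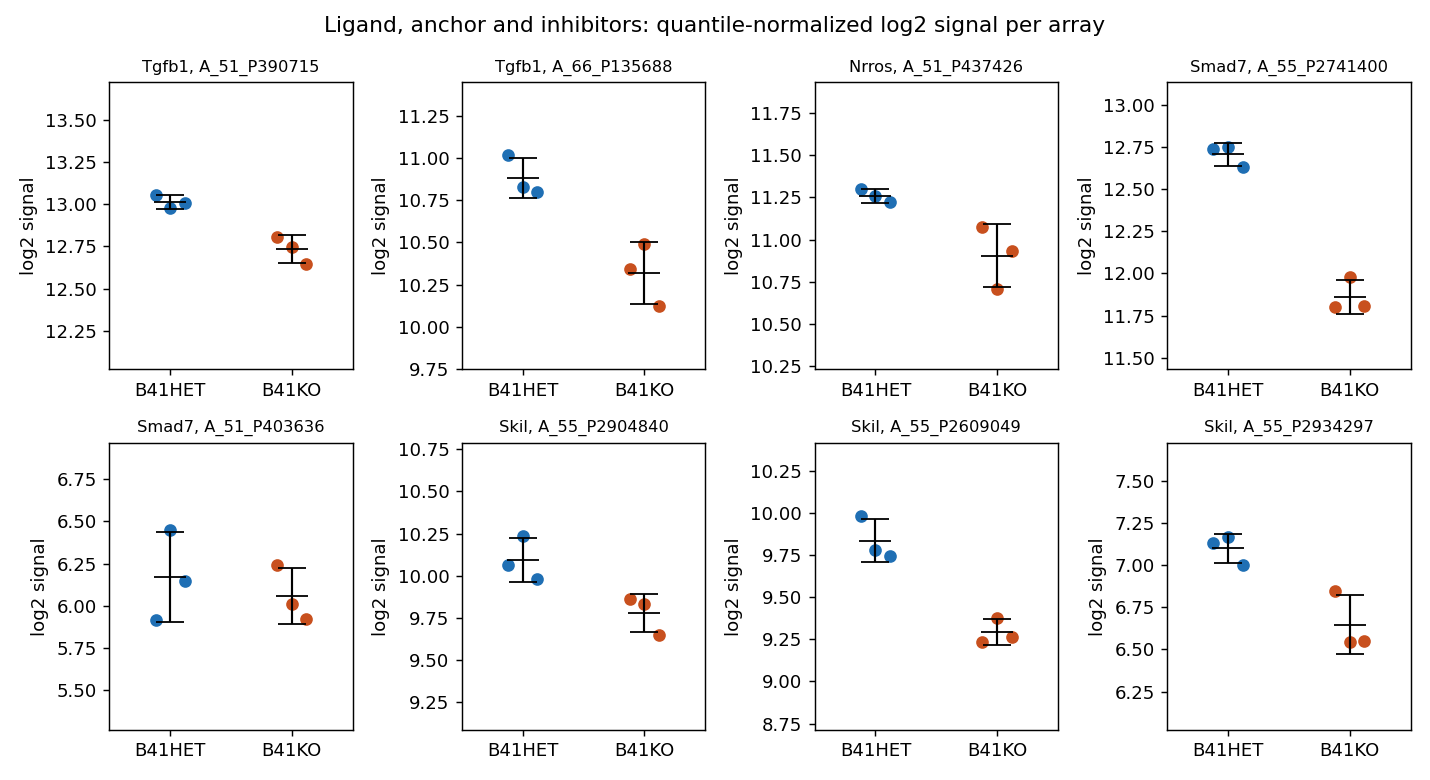
Quantile-normalized log2 signal of each array (points) for the ligand *Tgfb1*, its anchor *Nrros* and the inhibitors *Smad7* and *Skil*, 1 panel per probe, with the mean and SD of 3 samples per genotype. The genotypes do not overlap in any panel except that of the dimmer *Smad7* probe, A_51_P403636, and each panel has its own axis of equal span, since signals of different probes cannot be compared.

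Neither receptor gave a difference that passed the test. *Tgfbr1*, the signalling receptor, was read by 2 probes on 1 transcript. On the brighter, A_52_P4538, the B41HET samples spread from 9.87 to 10.45 and the B41KO samples from 10.08 to 10.21, so that B41KO lay inside the B41HET range. The log2 fold change was -0.05 (SE 0.16, interval -0.44 to 0.34, adjusted p = 0.899), and without B41HET 1 it was 0.09. The other probe, A_51_P280137, ran from 9.83 to 9.99 in B41HET and from 9.53 to 9.89 in B41KO, with B41KO 3 inside the B41HET range (log2 fold change -0.22, SE 0.12, interval -0.50 to 0.07, adjusted p = 0.343). *Tgfbr2*, which binds the ligand first, had log2 signals of 8.23, 8.03 and 7.68 in B41HET and of 8.12, 7.67 and 8.17 in B41KO. Its means, 7.98 in both genotypes, differed by 0.01 (SE 0.20, adjusted p = 0.990). The interval of -0.48 to 0.50 still held changes of about the fold threshold in either direction.

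The receptor-regulated SMADs did not pass the test either. *Smad2* had a probe on each of 2 transcripts, and the genotypes overlapped on both (A_52_P397280, log2 fold change -0.16, SE 0.13, adjusted p = 0.546, and A_66_P116808, -0.07, SE 0.096, adjusted p = 0.737). For *Smad3*, which with *Smad2* carries the signal from the receptor, the 2 probes pointed apart although both lie on the same transcript. A_52_P352277 gave 7.79, 7.68 and 7.67 in B41HET and 7.40, 7.65 and 7.40 in B41KO. These samples did not overlap, but B41KO 2 lay only 0.02 below the lowest B41HET sample, and the log2 fold change was -0.23 (SE 0.097, adjusted p = 0.239). A_55_P2101001 overlapped and was higher, at 0.10 (SE 0.092, adjusted p = 0.597). The mean over the *Smad3* probes was -0.07 (SE 0.071, adjusted p = 0.658).

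*Smad4*, the shared partner of the receptor-regulated SMADs, was the member with the most probes, 5, and they disagreed. Its brightest probe, A_55_P2745195, had log2 signals of 11.30, 11.09 and 11.28 in B41HET and of 10.81, 10.85 and 10.66 in B41KO. The genotypes were apart, with a log2 fold change of -0.45 (SE 0.097, interval -0.69 to -0.21, adjusted p = 0.0539). A_55_P2745667 had the smallest spread of the lower *Smad4* probes, at 9.68, 9.69 and 9.72 in B41HET and 9.29, 9.32 and 9.35 in B41KO. Its log2 fold change of -0.37 (SE 0.064, interval -0.53 to -0.21) had an adjusted p of 0.0316, and it was not called because the change was under the fold threshold. In contrast, every B41KO sample lay above every B41HET sample on A_55_P2112617, the nearest by 0.02, with a log2 fold change of 0.10 (SE 0.071, adjusted p = 0.484). The other two overlapped, at -0.15 (A_52_P611867, adjusted p = 0.406) and at -0.05 (A_55_P2061724, on a predicted transcript, adjusted p = 0.746). Of the 5 probes, 4 were designed on the same transcript. The mean over all 5 was -0.18 (SE 0.064, adjusted p = 0.176), so that the direction of *Smad4* depended on the probe read.

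The inhibitors held both calls. *Smad7*, which blocks the receptor, had the largest change of the 21 probes on A_55_P2741400. There the log2 signals were 12.74, 12.75 and 12.63 in B41HET and 11.80, 11.98 and 11.81 in B41KO. The lowest B41HET sample was 0.65 above the highest B41KO sample, a gap of several times the SD within either genotype (0.067 in B41HET and 0.10 in B41KO). The log2 fold change was -0.84 (SE 0.085, interval -1.05 to -0.63, adjusted p = 0.00866), or 1.80-fold lower in B41KO. The call was kept without each sample in turn, with log2 fold changes of -0.90 to -0.81 and adjusted p from 0.0274 to 0.0494. Within slide row 1 the difference was -0.91. Since row 2 held only B41KO samples, a model with slide row as a block takes its fold change from row 1, where B41KO 1 was the only B41KO sample. That model therefore gave the same -0.91, with an adjusted p of 0.0679, which lost the call.

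The dimmer *Smad7* probe, A_51_P403636, did not follow it. It had log2 signals of 5.92, 6.45 and 6.15 in B41HET and of 6.24, 6.01 and 5.92 in B41KO, with the genotypes overlapping almost completely. Its log2 fold change was -0.11 (SE 0.16, adjusted p = 0.743), and its interval of -0.52 to 0.29 did not reach the change of the brighter probe. Both probes were designed on the same transcript, and both were above background on every array. Averaged over them, *Smad7* changed by -0.48 (SE 0.10, adjusted p = 0.0570). Which of the probes reads the mature *Smad7* transcript was not tested.

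*Skil*, the nuclear repressor SnoN, was read by 3 probes on 3 transcripts, and all agreed in direction. On A_55_P2609049, which was called lower, the log2 signals were 9.98, 9.78 and 9.75 in B41HET and 9.23, 9.38 and 9.27 in B41KO, well apart. The log2 fold change was -0.54 (SE 0.094, interval -0.78 to -0.31, adjusted p = 0.0325). On A_55_P2904840, the brightest, the signals were 10.06, 10.24 and 9.98 in B41HET and 9.86, 9.83 and 9.65 in B41KO (log2 fold change -0.32, SE 0.10, adjusted p = 0.145). On A_55_P2934297 they were 7.133, 7.167 and 7.003 in B41HET and 6.847, 6.545 and 6.549 in B41KO (log2 fold change -0.45, SE 0.11, adjusted p = 0.0758). None of the 3 overlapped, and the mean over them was -0.44 (SE 0.083, adjusted p = 0.0449), under the fold threshold. The single *Skil* call was lost under 9 of 14 alternatives, among them without any one of the 6 samples (-0.59 to -0.47, adjusted p from 0.0720 to 0.100), with normexp correction, where the change of -0.43 was under the fold threshold (adjusted p = 0.00426), and once slide row entered as a block (-0.60, adjusted p = 0.158).

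*Ski*, the paralogue of *Skil* and likewise a nuclear repressor of SMAD complexes, went the other way without passing the test. Its probe, A_51_P301508, had log2 signals of 12.08, 12.03 and 12.13 in B41HET and of 12.35, 12.30 and 12.05 in B41KO. B41KO 1 and 2 were above all B41HET samples and B41KO 3 was among them. The log2 fold change was 0.15 (SE 0.10, interval -0.10 to 0.41, adjusted p = 0.449). The difference between *Ski* and *Skil* was not tested.

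**Figure D3:**
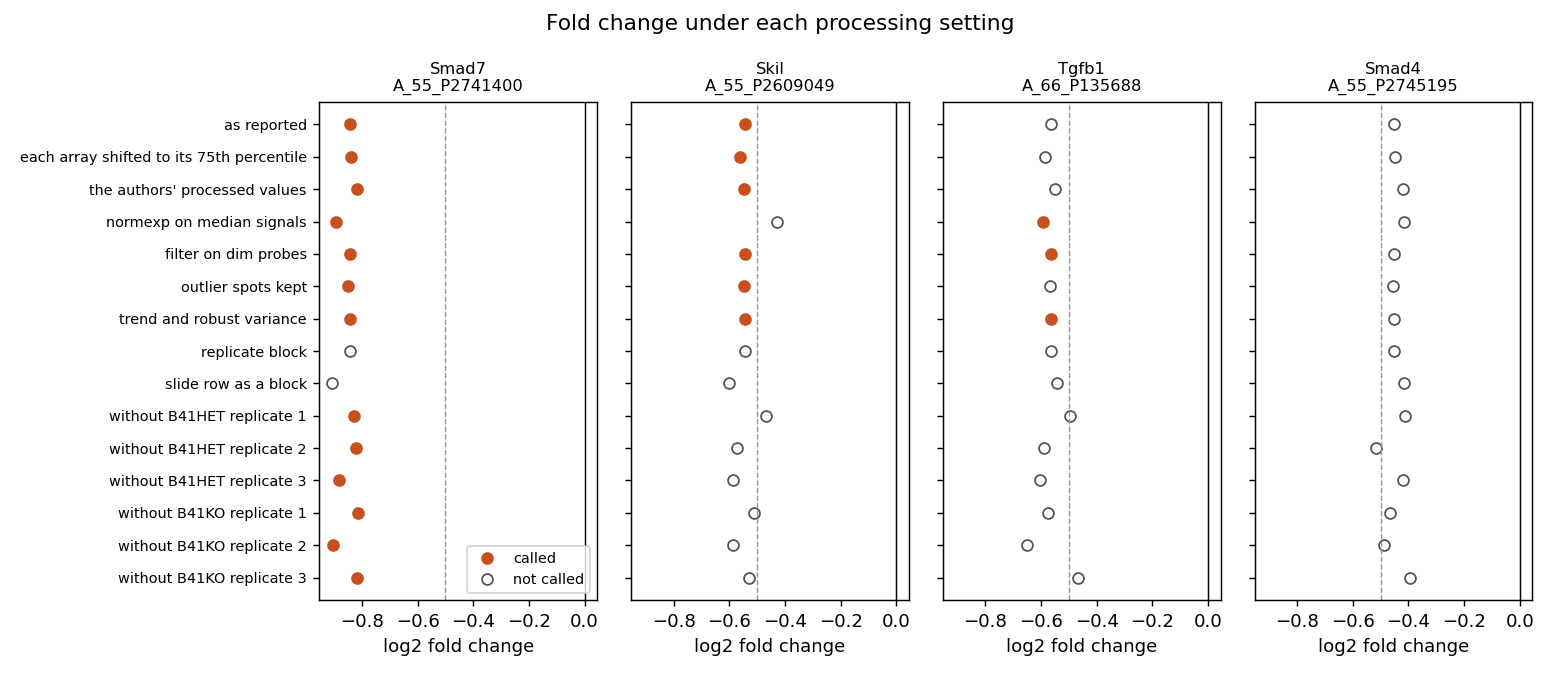
Log2 fold change (B41KO over B41HET) of 4 member probes as reported and under 14 alternatives each, filled where the probe was called and open where it was not, with a dashed line at the fold threshold of -0.5. *Smad7* A_55_P2741400 kept its call under 12 alternatives, *Skil* A_55_P2609049 lost it under 9 alternatives, *Tgfb1* A_66_P135688 gained it under 3 and *Smad4* A_55_P2745195 under none.

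The rest of the pathway was read from lists of 67 other genes, each by its brightest probe. Of these, 33 were higher and 34 lower in B41KO, with a median log2 fold change of -0.002, 5 were called lower (7.46%, beside 4.01% of all genes) and none was called higher (1.44% of all genes), although 8 were higher and 8 lower at an unadjusted p under 0.05. Over all 23462 genes, 2493 were higher and 3380 lower at such a p. The genotypes did not overlap for 31.3% of them, near the 32.2% of all genes. Among 13 other ligands, only *Inhba*, which encodes the activin A subunit, was called lower. *Inhba* had log2 signals of 4.53, 4.18 and 3.81 in B41HET on its brighter probe, A_51_P239750. No B41KO array had this probe well above background. As reported, it was at least 2.59-fold lower (measured means 4.17 and 0.75, adjusted p = 0.00181). That bound did not hold with normexp correction, where the change was -0.40. The dimmer *Inhba* probe, A_51_P303791, was too dim to read in either genotype and overlapped between them (log2 fold change -0.57, adjusted p = 0.441). The other TGF-β ligands were flat, *Tgfb2* at -0.02 (adjusted p = 0.926) and *Tgfb3* at 0.03 (adjusted p = 0.939), with overlapping samples.

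Among 16 genes that hold or release latent TGF-β, 8 were higher and 8 lower, and 2 were called lower. *Mmp14*, a membrane metalloproteinase that can release TGF-β, was at 8.26, 8.39 and 8.15 in B41HET and at 6.74, 6.73 and 6.58 in B41KO (log2 fold change -1.58, SE 0.094, adjusted p = 0.00220). *Emilin1*, an extracellular glycoprotein that binds the TGF-β1 precursor, was also lower (-1.09, SE 0.15, adjusted p = 0.0176). The αvβ8 integrin that releases the ligand gave no call. Its *Itgav* subunit was at 0.38 (adjusted p = 0.132), with every B41KO sample above every B41HET sample, and *Itgb8* at -0.31 (adjusted p = 0.765) was well above background on only 2 B41HET arrays and 1 B41KO array. *Lrrc32*, the anchor used by other cells in place of *Nrros* (-0.06, adjusted p = 0.884), and *Ltbp3*, a latent TGF-β binding protein (0.02, adjusted p = 0.934), overlapped between genotypes.

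None of the 12 other receptors was called, with a median of 0.03 and with 1 gene higher and 1 lower at an unadjusted p under 0.05. The co-receptor *Eng* was at 0.001 (SE 0.075, adjusted p = 0.995), the type I receptor *Acvrl1* at -0.05 (adjusted p = 0.719) and the co-receptor *Tgfbr3* at 0.17 (SE 0.47, adjusted p = 0.873), the last well above background on 2 arrays of each genotype. Of 26 other SMADs and regulators, 9 were higher, 17 were lower and 2 were called lower. These were *Tgif1*, a co-repressor of SMAD complexes (-0.87, SE 0.086, adjusted p = 0.00822), and *Dab2*, an adaptor that links receptors to SMADs (-0.58, SE 0.078, adjusted p = 0.0168). The second *Tgif1* probe, on another transcript, was at 0.05 (adjusted p = 0.849). Over 16 alternatives the log2 fold change of *Tgif1* ran from -0.91 to -0.41, and its call was lost under 3 of them. The BMP-pathway *Smad1* was at -0.20 (adjusted p = 0.231) and the inhibitory *Smad6*, the paralogue of *Smad7*, at 0.10 (adjusted p = 0.515).

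Genes that respond to the pathway were read from 3 lists without the members, 57 genes in all. Of them 40 were lower and 17 higher (median -0.24), 15 were called lower (26.3%, beside 4.01% of all genes) and none higher, with 24 lower and 5 higher at an unadjusted p under 0.05. Over all 23462 genes, 3380 were lower and 2493 higher at such a p. Among 17 immediate targets in many cell types, 11 were lower and 2 were called, *Tgif1*, also counted above, and *Tgfbi*, an extracellular matrix protein (-0.58, SE 0.086, adjusted p = 0.0219). The other immediate targets named here did not point one way. *Id2*, an inhibitor of helix-loop-helix factors, was at -0.69 (SE 0.15, adjusted p = 0.0531) and the transcription factor gene *Klf10* at -0.61 (SE 0.17, adjusted p = 0.0977). *Pmepa1*, a target that dampens the signal, was at 0.22 (SE 0.072, adjusted p = 0.142). For each of these 3 the genotypes did not overlap.

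The microglial genes that need TGF-β signalling gave a mixed picture with a median of -0.06. Of 22, 8 were higher, 14 were lower and 3 were called lower, among them *Fcrls*, a microglial Fc receptor-like gene (-0.76, SE 0.065, adjusted p = 0.00581), and the AP-1 gene *Jun* (-0.55, SE 0.075, adjusted p = 0.0188). *Fcrls* is also 1 of the microglial markers, while the other identity genes named here did not pass. *Sall1*, a transcription factor of microglial identity, was at 0.11 (adjusted p = 0.759) and *Tmem119* at -0.05 (adjusted p = 0.753), both overlapping. *P2ry12*, the purinergic receptor of resting microglia, was at -0.28 (SE 0.065, adjusted p = 0.0644), without overlap.

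Of 18 genes known to rise in microglia without TGF-β signalling, 10 were called lower, none higher, and the median was -0.69. Among the 15 lower genes were the MHC class II genes *H2-Aa* (-2.29, SE 0.13, adjusted p = 0.00196) and *Cd74* (-1.55, SE 0.075, adjusted p = 0.00144), the NADPH oxidase subunit *Cybb* (-2.08, SE 0.083, adjusted p = 0.000895) and the galectin *Lgals3* (-1.62, SE 0.081, adjusted p = 0.00157). The lipoprotein gene *Apoe* was at 14.84, 14.75 and 14.69 in B41HET and at 14.04, 14.07 and 14.12 in B41KO (-0.68, SE 0.074, adjusted p = 0.0103). *Axl*, a receptor for dying cells, had probes on the same transcript that disagreed. Its brighter probe, A_66_P119852, was at 0.15 (SE 0.080, adjusted p = 0.326) and A_65_P08024 was called lower at -1.25 (SE 0.088, adjusted p = 0.00366).

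Several calls outside the 10 genes rested on all 6 samples. Those of *Tgfbi* (adjusted p from 0.0566 to 0.0909) and *Jun* (0.0528 to 0.0839) were lost without any one sample. That of *Dab2* was lost without any sample but B41HET 3 (0.0452 to 0.0780), that of *Emilin1* without B41HET 1, B41HET 2, B41KO 1 or B41KO 3 (0.0415 to 0.0701), and that of *Apoe* (0.0360 to 0.0560) without B41HET 2. With normexp correction *Inhba* (-0.40), *Emilin1* (-0.46) and *Dab2* (-0.42) were lower by less than the fold threshold. The call of *Fcrls* was kept without each sample (0.0264 to 0.0412) and was lost under 2 of 16 alternatives (highest adjusted p 0.0716).

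**Figure D4:**
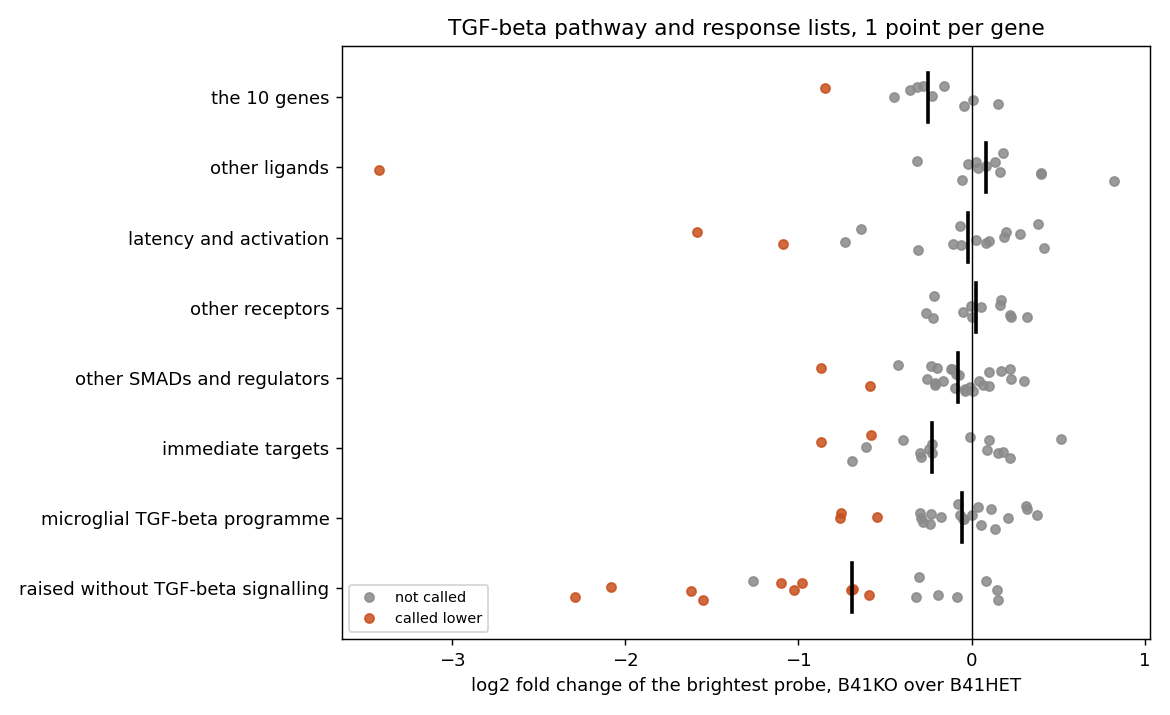
Log2 fold change of the brightest probe of each gene, B41KO over B41HET, for the 10 genes and for the lists of other pathway and response genes, with 1 point per gene and a black bar at the median of each list. Orange marks genes called lower, of which the list of genes raised without TGF-β signalling holds 10 of its 18, and the point farthest left is *Inhba*, whose B41KO signals were not well above background.

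Markers of some other blood and border cells differed between the genotypes beside these values. The 12 monocyte and neutrophil markers had a summed signal of 23270 to 26100 in B41HET and of 3634 to 4091 in B41KO, with 11 lower and 8 called lower. For the 10 border macrophage markers the sums were 2442 to 2644 and 1678 to 1852, with 10 lower and 5 called lower, and 3 of these markers are also among the 18 genes raised without TGF-β signalling. The endothelial and pericyte sum was 1368 to 1457 in B41HET and 619.6 to 718.8 in B41KO, while 6 of the 10 markers were higher, 4 were lower and the median log2 fold change was 0.04. The 2 called lower were *Ly6c1* (-1.79, adjusted p = 0.00107) and *Pecam1* (-1.68, adjusted p = 0.00301), and *Flt1*, *Cdh5*, *Rgs5* and *Pdgfrb* were not well above background on any array. Dendritic cell markers summed to 1890 to 2011 and 1599 to 1766, with 7 of 10 lower, 3 called lower and *Xcr1* not well above background on any array. The platelet and erythroid sum was 32910 to 35150 in B41HET and 41470 to 43040 in B41KO, with 8 of 9 markers higher. Most of this sum was the signal of the brighter *Hba-a1* probe, at log2 14.93 to 15.03 in B41HET and 15.25 to 15.31 in B41KO. The 2 called higher were the erythroid genes *Hbb-bt* (1.36, adjusted p = 0.00447) and *Alas2* (0.55, adjusted p = 0.0312), while *Hba-a1* was at 0.30 on its brighter probe (adjusted p = 0.0632) and at 1.37 on A_51_P169730 (adjusted p = 0.00185), which was called higher. Of the platelet genes, *Gp9* was at -0.40 (adjusted p = 0.0811), *Gp1bb*, *Gp5* and *Itga2b* overlapped between the genotypes, and no array had *Ppbp* well above background. The lymphocyte sums (1232 to 1369 and 1268 to 1369, 1 of 9 called lower, *Cd3g* and *Ms4a1* not well above background) and those of astrocytes, oligodendrocytes and neurons (23200 to 25320 and 24430 to 25190, 1 of 12 called lower, *Syt1* not well above background) overlapped between the genotypes. The part of these cells in the values of *Tgfb1*, *Nrros*, *Smad7*, *Skil* and the response genes was not tested.

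Another scaling moved the whole array. When arrays were scaled by the 75th percentile of their signals instead of by quantiles, the median of all probes rose from 0.02 to 0.13 and the share of higher among all calls from 34.0% to 45.8%. Relative to that median, *Smad7* A_55_P2741400 was at -0.96, *Skil* A_55_P2609049 at -0.69, *Tgfb1* at -0.42 and -0.71 and *Nrros* at -0.46. The second *Smad2* probe and the *Smad4* probe on a predicted transcript turned from below to above 0 on that scale (0.01 and 0.04) and stayed below the median of all probes, at -0.12 and -0.09. Of the 21 probes, only *Ski*, at 0.02, was above that median.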

How the data were processed

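RNA of 6 pooled microglia samples was hybridised in 1 colour. The authors deposited scanner intensity values (Feature Extraction 11.5.1.1, background-subtracted and detrended within each array) and a table of processed log2 values, which was used as an alternative. Control spots (3671 of 62976) were left out, as were 95 to 136 outlier-flagged spots on each array. The log2 intensity was quantile normalized, spots of a probe were averaged, and 56601 probes were tested with limma 3.58.1 in R 4.3.3 (genotype as the only term, Benjamini-Hochberg adjustment over all probes, adjusted p of 0.05 or less, log2 fold change of 0.5 or more). Of 56605 probes, 33767 (59.7%) were named through RefSeq accessions. The members and lists were chosen with earlier results of these data known. The genes named were all members, *Bhlhe41*, up to 4 called genes without overlap in each direction per list, and 20 other genes fixed with the lists. Cell type markers were named beside their summed lists, chosen after their values were seen. Some genes that the naming rule covers are not reported here. With 3 samples per genotype, the number of arrays limits the precision. The code was tested on simulated data. Alternatives covered scaling, background correction, filters, variance, blocks, the probe read and leaving out each sample. The data.table package was version 1.17.8, and plots used pandas 2.3.3 and matplotlib 3.10.9 in Python 3.11.15.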

Additional observations from a re-analysis of the deposited data

How the results depend on the processing

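The counts of calls changed with the processing. With normexp correction 423 probes were called higher and 1077 lower, and with slide row entered as a block 184 and 260. That block takes its fold changes from row 1, where B41KO 1 was the only B41KO sample. Leaving out 1 sample gave 242 to 513 higher and 550 to 1024 lower. Member probes called lower fell to 0 under the slide row block and to 1 with a fold of 1.5 or more and without any one sample (lowest and highest 1). Other pathway genes called lower were 2 with normexp and 2 under the slide row block, and 3 to 5 without a sample (3 without B41HET 1, B41HET 2, B41KO 1 or B41KO 3), while reading the probe with the lowest p gave 1 called higher. Response genes called lower were 5 under that block and 7 to 12 without a sample (7 without B41HET 2), and 1 was called higher with dim probes left out and 1 with a trended, robust variance. The fold of *Smad7* A_55_P2741400 ran from -0.91 to -0.81 over 14 alternatives.

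Same-numbered samples deviated from their group means with correlations of 0.0276, 0.0136 and 0.0478, so the numbers were not taken to pair samples. With a replicate block 2 probes were called higher and 40 lower, 0 member probes, 0 other pathway genes and 1 response gene were called lower, and *Smad7* had an adjusted p of 0.0716.

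Of 294 values of member probes under an alternative, 267 kept direction and side of the threshold, and of 544 values of other named genes 463 did. The 75th percentile scaling turned *Smad2* A_66_P116808 to 0.00918, *Smad4* A_55_P2061724 to 0.0372, *Tgfb2* to 0.105, *Lrrc32* to 0.0190 and *Eng* to -0.00324. Normexp turned *Tgfbr1* A_52_P4538 to 0.00393, *Tgfbr2* to -0.0365, *Smad2* A_66_P116808 to 0.0214 and *Lrrc32* to 0.0226. The slide row block turned *Smad2* A_66_P116808 to 0.0218, *Smad7* A_51_P403636 to 0.0722 and *Tgfb2* to 0.127. The authors' values turned *Tgfbr2* to -1.25e-05 and *Acvrl1* to 0.0382, and keeping outlier spots turned *Eng* to -0.00168. The mean over probes turned *Acvrl1* to 0.00894 and *Axl* to -0.547, and the probe with the lowest p turned them to 0.0702 and -1.25. Without 1 sample the ranges that crossed 0 were -0.204 to 0.0875 for *Tgfbr1* A_52_P4538, -0.143 to 0.164 for *Tgfbr2*, -0.240 to 0.0264 for *Smad7* A_51_P403636, -0.0994 to 0.0567 for *Tgfb2*, -0.133 to 0.158 for *Tgfb3*, -0.789 to 0.210 for *Itgb8*, -0.253 to 0.0945 for *Lrrc32*, -0.0541 to 0.106 for *Ltbp3*, -0.0257 to 0.0367 for *Eng* and -0.353 to 0.506 for *Tgfbr3*. None of these was called as reported, and the cause was not tested.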
